A study of Mus musculus with 24 samples.

Results

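The genes described here are the mouse cytochrome P450 (Cyp) genes of families 1, 2 and 3, which oxidise drugs, toxins and other foreign compounds and, for many members, steroids and fatty acids. They were taken from the deposited table by symbol: Cyp, a family number of 1, 2 or 3, 1 subfamily letter and a gene number, without pseudogenes and without Cyp2c70, a bile acid enzyme. The rule found 57 genes among the 56205 rows of the table. Of these, 42 had enough counts in these livers to be tested, as had 14109 genes in all, and 15 did not.

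The samples are whole livers of 24 C57BL/6J mice, measured as read counts per gene by RNA sequencing. For 20 weeks 12 mice ate a methionine-choline deficient (MCD) diet and 12 ate a control diet. According to the methods, this form of the MCD diet was also rich in fat, and the fat content of its control diet is not stated there. MCD feeding is a model of fatty, inflamed and fibrotic liver disease, and no transgene or drug was part of it. Both sexes are present in equal numbers in each diet by the series description, but the labels give no sex, litter, batch or age for any single library, and the text assigns none.

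P450 enzymes are heme proteins of the endoplasmic reticulum that receive electrons from P450 reductase (Por) and, in part, from cytochrome b5. In the liver most of them are made by hepatocytes, and several mainly around the central vein. The aryl hydrocarbon receptor (AhR) induces family 1, the nuclear receptors CAR (Nr1i3) and PXR (Nr1i2) induce many genes of subfamilies 2b, 2c and 3a, and HNF4α (Hnf4a) sustains basal expression of many. In mice a number of members are also sex-biased through the pattern of growth hormone secretion, which signals through STAT5B.

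Total counts ran from 16793207 to 24915175 per control library and from 16388650 to 24577848 per MCD library. Levels are given as CPM, the count of a gene relative to the library total after scaling by trimmed mean of M values (TMM), and are divided by transcript length in kb where genes are set beside each other. A floor of 3 counts equals 0.134 to 0.227 CPM in control and 0.109 to 0.158 CPM in MCD libraries. The TMM factors of control libraries (0.642 to 0.973) and MCD libraries (1.07 to 1.26) were separate, so results are also given with libraries scaled by total counts alone, which moves the median log2 fold change of all genes up by 0.37. Control replicates 12 and 4 stood apart, with a highest correlation to another control of 0.935 and 0.967, against at least 0.980 in every other library. Of 9 tested hepatocyte markers 6 were lower in MCD livers, and 0 with total counts alone, where their median log2 fold change was -0.24 instead of -0.62. In whole liver, fewer hepatocytes and less P450 RNA in each hepatocyte cannot be told apart. Among markers of other cells, 7 of 8 stellate genes were higher and 1 lower (7 and 0 with total counts alone), and 6 of 6 bile duct genes were higher. Of 8 macrophage genes 5 were higher and 3 lower, the latter being the resident Kupffer cell markers Timd4 (-4.10), Clec4f (-1.11) and Vsig4 (-0.68), of which Timd4 remained called with total counts alone (-3.75). Of 8 lymphocyte genes 4 were higher (6 with total counts alone), and of 6 endothelial genes 5 were lower (2 with total counts alone).

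Most of the tested members are tandem copies, and 35 of the 42 lie in 5 clusters. On GRCm38 (mm10), 10 members of subfamilies 2a, 2b, 2f, 2g and 2s lie at chr7:25802475-27133660, 11 Cyp2c genes at chr19:39007019-40113950, 7 Cyp2d genes at chr15:82370527-82794294, 3 Cyp2j genes at chr4:96516138-96664154 and 4 Cyp3a genes at chr5:145773983-146113287. RefSeq promoter records (GRCm38.p6) were found for 49 of the 57 genes and for 36 of the 42 tested ones. Each record holds 250 bases before the RefSeq start, and printed stretches leave out any base inside the GENCODE gene. Cyp2a4 and Cyp2a5, near copies in the same cluster, are shown first because their levels related differently to a sex-linked score described with the results, although 245 of 249 aligned upstream bases were identical. The 4 differing bases are in capitals.

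Cyp2a4, chr7:26306942-26307168, plus strand: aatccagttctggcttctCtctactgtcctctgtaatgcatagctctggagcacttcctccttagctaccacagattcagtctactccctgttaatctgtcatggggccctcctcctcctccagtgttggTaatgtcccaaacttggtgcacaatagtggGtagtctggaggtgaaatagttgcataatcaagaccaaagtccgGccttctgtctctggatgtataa

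Cyp2a5, chr7:26835089-26835304, plus strand: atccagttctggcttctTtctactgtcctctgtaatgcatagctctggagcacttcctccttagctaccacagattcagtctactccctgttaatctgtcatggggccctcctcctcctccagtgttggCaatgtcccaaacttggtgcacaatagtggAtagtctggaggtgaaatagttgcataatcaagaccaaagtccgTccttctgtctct

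The following 4 neighbouring Cyp2c copies carry an HNF4 element, CAAAGTCCA, in capitals, and are shown because they differed widely in level and in their relation to the score. The element was found, on either strand, in the windows of 5 of the 36 tested members (13.9%: these 4 and Cyp3a11) and in 0.381% of the windows of all 27025 genes with a record. It also stood before the untested Cyp2c65 and Cyp3a16. Close copies inherit the same letters, so these matches are not separate occurrences.

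Cyp2c40, chr19:39812815-39813064, minus strand: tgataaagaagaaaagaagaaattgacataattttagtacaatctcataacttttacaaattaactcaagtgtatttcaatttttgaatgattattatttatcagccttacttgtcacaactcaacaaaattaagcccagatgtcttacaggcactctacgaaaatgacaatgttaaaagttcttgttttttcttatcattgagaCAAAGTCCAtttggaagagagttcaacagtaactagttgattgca

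Cyp2c67, chr19:39649052-39649292, minus strand: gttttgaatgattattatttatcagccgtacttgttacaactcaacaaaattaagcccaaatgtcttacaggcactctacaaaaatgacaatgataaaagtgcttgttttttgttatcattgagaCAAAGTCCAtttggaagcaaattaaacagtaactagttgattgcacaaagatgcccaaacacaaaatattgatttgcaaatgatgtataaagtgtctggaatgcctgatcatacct

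Cyp2c68, chr19:39741102-39741351, minus strand: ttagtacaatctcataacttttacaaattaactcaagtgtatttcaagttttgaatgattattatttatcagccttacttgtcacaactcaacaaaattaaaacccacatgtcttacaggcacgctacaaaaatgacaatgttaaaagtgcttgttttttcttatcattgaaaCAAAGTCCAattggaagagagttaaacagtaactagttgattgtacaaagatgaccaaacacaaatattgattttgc

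Cyp2c69, chr19:39886800-39887019, minus strand: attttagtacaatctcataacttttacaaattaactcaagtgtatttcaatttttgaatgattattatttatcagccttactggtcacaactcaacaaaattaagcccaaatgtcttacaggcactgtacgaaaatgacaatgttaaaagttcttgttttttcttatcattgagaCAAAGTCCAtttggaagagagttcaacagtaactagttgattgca

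Cyp1b1, the member that rose most, is shown with the core of the element that the AhR and its partner Arnt bind, GCGTG, which reads CACGC on the printed strand (capitals). This core was in the windows of 4 of the 36 tested members (11.1%: Cyp1b1, Cyp2b10, Cyp2c68 and Cyp2j9), of the untested Cyp1a1, Cyp2j12, Cyp2j13 and Cyp2w1, and of 28.2% of all genes. A STAT5 element, TTCNNNGAA, was in 7.18% of all windows, in 0 of the 36 tested members and in the untested Cyp2j11 and Cyp2j12. A missing match says only that these letters are absent from this short stretch.

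Cyp1b1, chr17:79715062-79715311, minus strand: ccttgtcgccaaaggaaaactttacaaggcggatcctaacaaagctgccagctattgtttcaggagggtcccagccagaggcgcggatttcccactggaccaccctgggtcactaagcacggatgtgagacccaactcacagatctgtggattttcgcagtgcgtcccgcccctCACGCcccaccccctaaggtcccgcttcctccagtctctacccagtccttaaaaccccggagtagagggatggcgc

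The summed level of the 57 genes ran from 6150 to 12916 CPM per kb in control livers, with a median of 8742, and from 5464 to 6901 CPM per kb in MCD livers, with a median of 6280. The ranges overlapped, and control libraries spread more widely. As a share of all counts the members held 1.14% to 1.87% in control and 1.20% to 1.51% in MCD livers. Cyp2e1, which oxidises ethanol and other small molecules, alone held 28.4% to 49.8% of the summed CPM per kb in control (median 37.7%) and 42.2% to 56.9% in MCD livers (median 47.8%). Without Cyp2e1 the sum was 3686 to 8042 CPM per kb in control and 2696 to 3715 CPM per kb in MCD livers. On this TMM scale, whose factors differed between the diets, the ranges met only at their edges. The sum was not taken with total counts alone, so that near separation may come from the scaling.

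**Figure D1:**
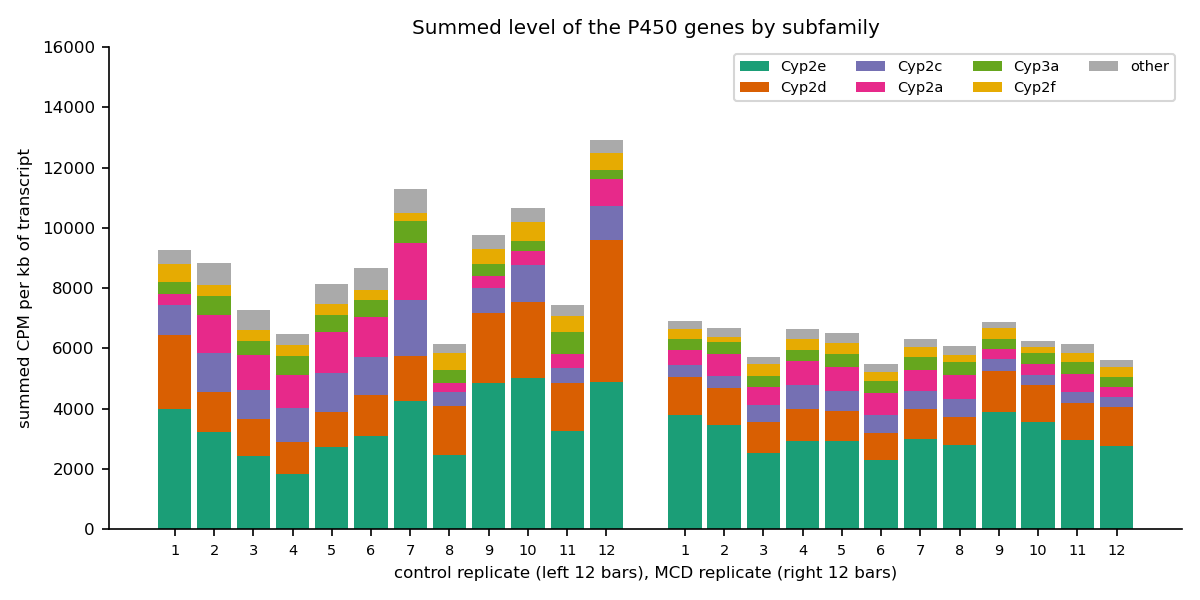
Summed CPM per kb of transcript in each library, stacked by subfamily, with control replicates 1 to 12 beside MCD replicates 1 to 12. The sum reaches 12916 in control replicate 12 and at most 6901 in MCD livers, and the Cyp2e segment is the largest in every bar.

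Each member was compared between the diets with edgeR's quasi-likelihood test, fitted over all genes of the table. A member was called at a false discovery rate (FDR) of 0.01 or less with a log2 fold change of MCD over control beyond 0.5 in either direction. On this scale 20 of the 42 tested members (47.6%) were lower and 3 (7.14%) higher in MCD livers, and 19 did not pass. Over all tested genes 19.1% were lower and 19.2% higher. The median log2 fold change was -0.94 over the members and -0.10 over all genes, and the value lay below 0 for 38 of 42 members (90.5%) and 57.5% of all genes. With total counts alone 12 members were lower, all of them among the 20, and the same 3 were higher, against 6.01% and 32.2% of all genes. There the median was -0.57 over the members and 0.27 over all genes, and 30 members lay below 0. Calls lost with total counts alone were those of Cyp2c68, Cyp2c69, Cyp2d10, Cyp2d11, Cyp2d22, Cyp2d26, Cyp2f2 and Cyp3a44. Without control replicates 4 and 12 there were 17 lower and 3 higher members, since Cyp2d10, Cyp2d26 and Cyp2f2 no longer passed. On the TMM scale every MCD library lay below all controls for 3 members (7.14%, against 4.88% of all genes) and above all of them for 1 (2.38%, against 9.5%).

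**Figure D2:**
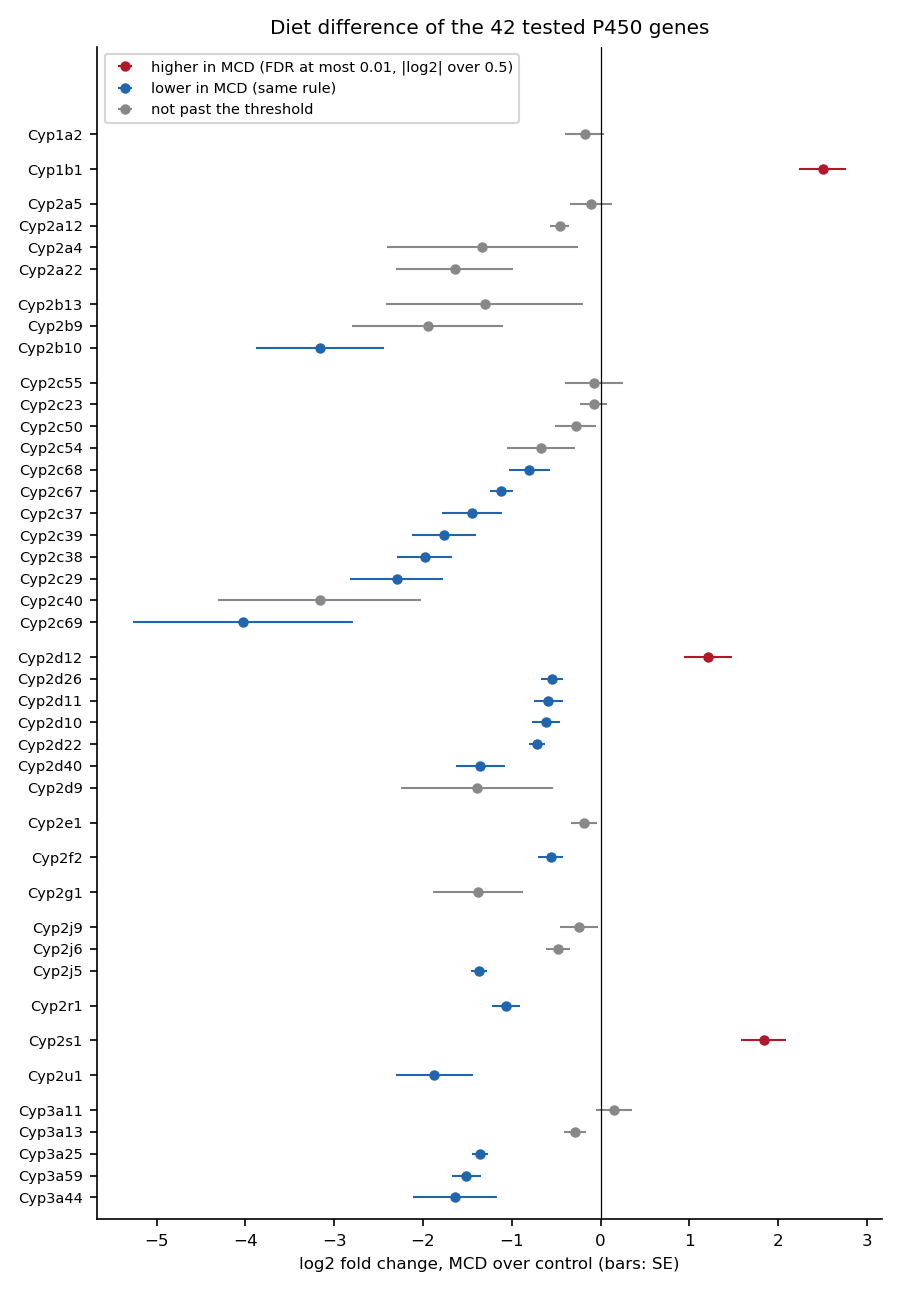
Log2 fold change of MCD over control for the 42 tested members on the TMM scale, grouped by subfamily, with bars for the SE and colour for the call. All but 4 points lie below 0 on this scale (30 of 42 do with total counts alone), and Cyp1b1, Cyp2s1 and Cyp2d12 are called higher.

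Family 1 is the family classically induced through the AhR. Cyp1a1, its most inducible member, was too low to be tested, at 2 to 14 counts per control library and 3 to 18 per MCD library. Cyp1a2, a hepatocyte enzyme that oxidises caffeine and aromatic amines, ranged from 72.1 to 378 CPM in control (median 274) and from 110 to 376 CPM in MCD livers (median 223). These ranges overlapped almost fully, and the log2 fold change was -0.18 (SE 0.22, 95% confidence interval -0.64 to 0.28, FDR 0.496), or 0.23 with total counts alone.

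Cyp1b1, which activates polycyclic hydrocarbons and is best known from cells other than hepatocytes, ranged from 0.465 to 4.64 CPM in control (median 1.33) and from 4.69 to 13.4 CPM in MCD livers (median 8.34). It was the member for which every MCD library lay above every control, by a narrow margin over control replicate 4 at 4.64 CPM. Its log2 fold change was 2.50 with an SE of 0.27 (FDR 9.22e-09), and 2.85 with total counts alone. The stellate markers summed to 164 to 541 CPM in control and 768 to 1369 CPM in MCD livers, with Lrat, a marker of quiescent stellate cells, lower at -0.93 but not past the threshold with total counts alone (-0.60, FDR 0.0107). Their part in the rise of Cyp1b1 was not tested. Of the AhR battery outside the P450 genes 5 of 7 were tested: the quinone reductase Nqo1 (0.68) and the glutathione transferase Gsta1 (1.82) were higher and Ugt1a6a (-0.64) was lower, the last not with total counts alone. Tiparp (-0.33, FDR 0.0555) and Ugt1a6b (-0.43, FDR 0.0101) did not pass.

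Cyp2e1 had the highest level per length, with a mean of 3285 CPM per kb over all libraries. It ranged from 3373 to 9213 CPM in control (median 5931) and from 4227 to 7139 CPM in MCD livers (median 5389). All MCD values lay inside the control range, and the log2 fold change was -0.19 (SE 0.14, 95% confidence interval -0.49 to 0.11, FDR 0.267), or 0.21 with total counts alone. Next in mean level were Cyp2d26 at 656 CPM per kb, Cyp2d10 at 437, Cyp2f2 at 385, Cyp2a5 at 345, Cyp2d9 at 317, Cyp3a11 at 259 and Cyp2a4 at 249. Of these 7, Cyp2d26, Cyp2d10 and Cyp2f2 were called lower on the TMM scale and none with total counts alone.

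Cyp2d genes are relatives of the human drug-metabolising CYP2D6. Of 7 tested, 5 were lower, 1 higher and 1 not called, and with total counts alone 1 was lower (Cyp2d40) and 1 higher. Cyp2d26 ranged from 850 to 2648 CPM in control (median 1249) and from 765 to 995 CPM in MCD livers (median 921), a log2 fold change of -0.55 with an SE of 0.13 (FDR 0.000572). Cyp2d10 ranged from 535 to 2012 CPM in control (median 761) and from 472 to 666 CPM in MCD livers (median 583), at -0.62 with an SE of 0.16 (FDR 0.00147). The highest control value of both came from replicate 12. Without that library they stood at -0.38 and -0.40, inside the fold limit, and with total counts alone at -0.15 and -0.19. Cyp2d26 was also just inside the limit without MCD replicate 2, 10 or 11 (-0.49 to -0.50).

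Cyp2d22 was separate between the diets on the TMM scale, with 192 to 409 CPM in control (median 263) and 131 to 187 CPM in MCD livers (median 163). Relative to total counts the diets overlapped. Control replicate 4 held 3397 counts of 18441749, and MCD replicate 8 held 3659 of 18696105. The log2 fold change of Cyp2d22 was -0.71 with an SE of 0.09 (FDR 1.77e-07), and -0.33 with total counts alone, inside the fold limit. Cyp2d40 ranged from 28.4 to 264 CPM in control (median 70.4), highest in replicate 12, and from 30.2 to 49.8 CPM in MCD livers (median 40.2). All MCD values lay inside the control range, and the log2 fold change was -1.35 with an SE of 0.28 (FDR 0.000152). Read at the ends of the sex-linked score described further on it was -2.10 and -0.36, although its diet by score term did not pass (FDR 0.0887). Cyp2d11 was near 1 CPM in both diets and called lower at -0.59. That call did not hold without control replicate 1 (-0.47), MCD replicate 2 (-0.52, FDR 0.0104) or MCD replicate 3 (-0.48).

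Cyp2d12 went the other way. It ranged from 0.735 to 2.95 CPM in control (median 1.63) and from 1.84 to 8.08 CPM in MCD livers (median 3.5). The ranges overlapped, with 8 of 12 MCD libraries above all controls, and the log2 fold change was 1.21 with an SE of 0.27 (FDR 0.000388), or 1.60 with total counts alone.

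Cyp2s1, known from epithelia of skin and airways, also rose. It ranged from 0.177 to 0.908 CPM in control (median 0.598) and from 0.795 to 3.62 CPM in MCD livers (median 1.74), with 11 of 12 MCD libraries above all controls. The log2 fold change was 1.84 with an SE of 0.26 (FDR 6.91e-07), and 2.21 with total counts alone. Its lowest control values are close to the floor, and its exons share 260 bases with Gm26707 on the opposite strand, whose reads cannot be told apart since the use of strand in counting is not given for these libraries in the sources used here. The 6 bile duct markers summed to 30.2 to 147 CPM in control and 456 to 916 CPM in MCD livers. Most of that sum is Spp1, which macrophages also make, at 24.8 to 138 CPM in control and 412 to 822 CPM in MCD livers, while Epcam, next in level in MCD livers, held 0.716 to 3.86 CPM and 17.4 to 44.2 CPM. The part of these cells in the rise of Cyp2s1 was not tested.

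**Figure D3:**
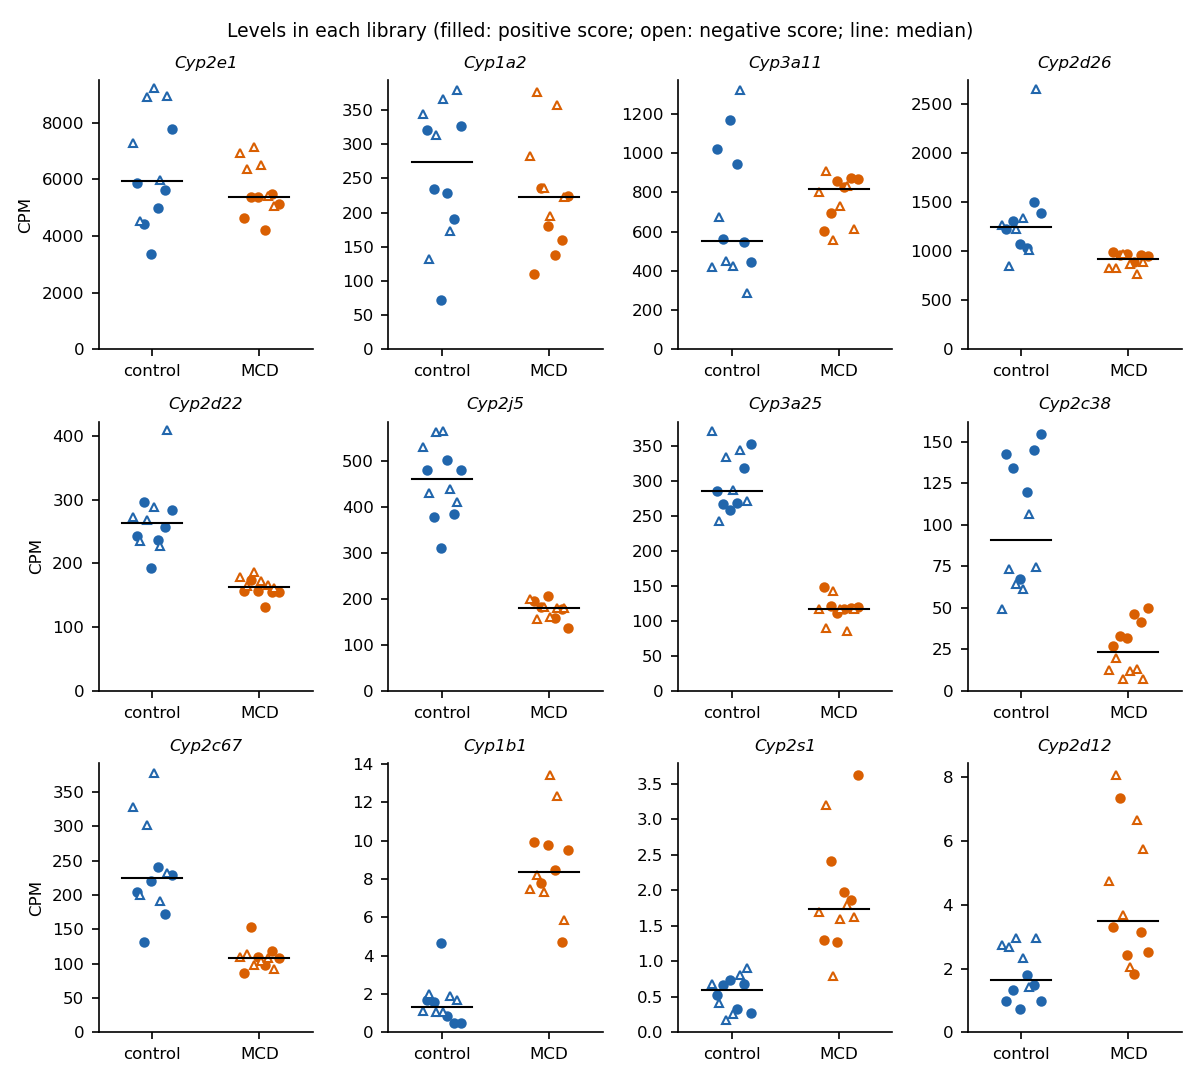
CPM of 12 members in each library by diet, with filled circles for libraries of positive sex-linked score, open triangles for those of negative score, and a line at each median. On this TMM scale every MCD point lies below all controls for Cyp2d22, Cyp2j5 and Cyp3a25 and above all of them for Cyp1b1, and the diets overlap for Cyp2e1 and Cyp1a2.

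Cyp2c genes, which oxidise drugs and arachidonic acid, held the most calls of any subfamily. Of 12 tested, 7 were lower and 5 did not pass, with a median log2 fold change of -1.28, and 5 were lower with total counts alone. Cyp2c38 ranged from 49.2 to 155 CPM in control (median 90.5) and from 6.92 to 50.1 CPM in MCD livers (median 23.5). With 11 of 12 MCD libraries below all controls, it stood at -1.98 with an SE of 0.31 (FDR 3.48e-06). Cyp2c29 ranged from 146 to 635 CPM in control (median 420) and from 6.73 to 166 CPM in MCD livers (median 78.4), at -2.29 with an SE of 0.52 (FDR 0.000463). The MCD values of Cyp2c29 formed separate low and high ranges, which are described with the score. Cyp2c67 fell by 1.12 on the log2 scale with an SE of 0.13, Cyp2c37 by 1.45 with an SE of 0.34 and Cyp2c39 by 1.76 with an SE of 0.36. With total counts alone the values were -1.62 for Cyp2c38, -1.88 for Cyp2c29, -0.73 for Cyp2c67, -1.05 for Cyp2c37 and -1.43 for Cyp2c39, each still past the threshold.

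The other Cyp2c members were less certain. Cyp2c68 (-0.80, SE 0.23) missed the FDR limit without control replicate 7 or MCD replicate 2, 10, 11 or 12 (FDR 0.0106 to 0.0131). Cyp2c69, the member with the largest fitted fall (-4.02, SE 1.24, FDR 0.00644), missed it without control replicate 7 or MCD replicate 1, 2, 3, 7, 8, 10, 11 or 12 (FDR 0.0102 to 0.0121). Cyp2c23, an epoxygenase, held 110 to 305 CPM in control and 156 to 253 CPM in MCD livers, at -0.08 (95% confidence interval -0.39 to 0.24). Cyp2c40, Cyp2c50, Cyp2c54 and Cyp2c55 were at -3.16, -0.28, -0.67 and -0.07 and did not pass. With total counts alone Cyp2c23, Cyp2c50 and Cyp2c55 stood above 0, at 0.32, 0.16 and 0.30.

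Cyp2j5, an epoxygenase, was separate between the diets, at 311 to 565 CPM in control (median 460) and 138 to 208 CPM in MCD livers (median 181). Its log2 fold change was -1.37 with an SE of 0.09 (FDR 5.61e-12), and -1.01 with total counts alone. Its neighbours Cyp2j6 (-0.48, FDR 0.00321) and Cyp2j9 (-0.24, FDR 0.331) did not pass, although Cyp2j6 did without control replicate 4, 6 or 7 (-0.52, -0.54 and -0.50). Cyp2r1, the main 25-hydroxylase of vitamin D, ranged from 4.18 to 16 CPM in control (median 10.3) and from 3.32 to 5.84 CPM in MCD livers (median 4.81). It fell by 1.07 on the log2 scale with an SE of 0.16 (FDR 1.92e-06), and by 0.69 with total counts alone.

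Cyp2f2, which bioactivates naphthalene and marks periportal hepatocytes, ranged from 547 to 1146 CPM in control (median 840) and from 317 to 738 CPM in MCD livers (median 598). Its log2 fold change was -0.56 with an SE of 0.14 (FDR 0.00135), near the fold limit. It was inside that limit without control replicate 1 or 12 or MCD replicate 2, 8 or 10 (-0.46 to -0.49), and stood at -0.19 with total counts alone. Its exons share 274 bases with Gm15883 on the opposite strand.

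Cyp3a genes, the main drug-oxidising subfamily under PXR, did not move together. Cyp3a25 was separate between the diets, at 242 to 370 CPM in control (median 286) and 86.1 to 148 CPM in MCD livers (median 117). Its log2 fold change was -1.36 with an SE of 0.09 (FDR 3.84e-12), and it kept its call with total counts alone. Its near copy Cyp3a59, with 97.5% identical coding sequence, fell by 1.51 with an SE of 0.16 (FDR 1.15e-08). Of all 51-base windows of Cyp3a59, 51 being the read length, 23.9% also occur in Cyp3a25, so the pair may share reads.

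Cyp3a11, the Cyp3a member with the highest mean level per length over all libraries and a standard target of PXR, ranged from 289 to 1320 CPM in control (median 554) and from 555 to 907 CPM in MCD livers (median 816). All MCD values lay inside the control range, and the log2 fold change was 0.15 (SE 0.20, 95% confidence interval -0.26 to 0.57, FDR 0.52). Cyp3a13, found in liver and gut, ranged from 86.9 to 169 CPM in control and from 59.9 to 142 CPM in MCD livers, at -0.29 with an SE of 0.12 (FDR 0.0428), or 0.08 with total counts alone. Cyp3a44 was called at -1.64 with an SE of 0.48 (FDR 0.00411), but without control replicate 7, its highest library at 336 CPM, it stood at -1.04 (FDR 0.0219). It also did not pass with total counts alone (-1.31, FDR 0.0217), with limma-voom, or with the replicate number as a block. Cyp3a41a, a neighbour left out by the rule for the letter at the end of its symbol, ranged from 1.36 to 2663 CPM in control and from 0 to 427 CPM in MCD livers and did not pass (-2.72, SE 1.20, FDR 0.0495).

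Cyp2b10, the standard reporter gene of CAR, ranged from 0 to 16.9 CPM in control (median 2.09) and from 0 to 1.42 CPM in MCD livers (median 0.261). The fitted log2 fold change was -3.16 with an SE of 0.72 (FDR 0.000442), and it rests on few reads, with at most 39 counts in an MCD library. With limma-voom the log2 fold change of Cyp2b10 did not pass (adjusted p = 0.01865), and it was not tested where at least 10 counts were required in every library. The other Cyp2b genes and the 4 tested Cyp2a genes were not called by diet. Among the latter Cyp2a12 (-0.46, FDR 0.000593) missed the fold limit, and Cyp2a5, a coumarin hydroxylase, stood at -0.11 (SE 0.24, FDR 0.708), or 0.29 with total counts alone.

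Outside the P450 genes, 10 targets of CAR and PXR were tested, of which 5 were lower and 2 higher, or 2 lower and 2 higher with total counts alone. The carboxylesterase Ces2a fell by 1.85 and the organic anion transporter Slco1a4 by 1.36, while Gadd45b rose by 2.99 and Gstm3 by 1.37. Of 13 tested regulators 6 were lower and 0 higher, among them Nr1i3 (CAR) at -0.90, Rxra, the partner of CAR and PXR, at -0.65, Ahr at -0.63, Stat5b at -0.55 and Nr1i2 (PXR) at -0.53. With total counts alone 1 regulator was lower and 0 higher, and the one still called was Nr1i3, at -0.53. Rxra (-0.30, FDR 0.0103), Ahr (-0.29, FDR 0.092), Stat5b (-0.21, FDR 0.13) and Nr1i2 (-0.15, FDR 0.102) did not pass there. On the TMM scale Hnf4a stood at -0.49 and missed the fold limit.

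Of 12 genes of electron transfer and heme supply 4 were lower and 1 higher, or 3 and 2 with total counts alone. Por, the reductase that microsomal members need, ranged from 555 to 1509 CPM in control and from 587 to 1116 CPM in MCD livers, at -0.08 with an SE of 0.15 (FDR 0.648). Cyb5r3 and Cyb5b, of the cytochrome b5 system, fell by 1.31 and 1.26, Pgrmc2, a heme-binding protein, by 0.98, and Cpox, of heme synthesis, by 0.76. Cpox did not pass with total counts alone (-0.42, FDR 0.0206). Alas1, also of heme supply, stood at 0.13 (FDR 0.595) and was called higher with total counts alone (0.55, FDR 0.00998). Hmox1, which breaks heme down, rose by 1.39 with an SE of 0.14 (FDR 2.73e-09).

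Because the series mixes both sexes, a sex-linked score was computed for each library: log2 CPM of Xist, expressed from the inactive X chromosome, minus the mean log2 CPM of the Y-linked genes Ddx3y, Eif2s3y, Kdm5d and Uty. In control livers 6 libraries scored 11.03 to 12.5 and 6 scored -8.07 to -5.41, and in MCD livers 6 scored 10.7 to 11.1 and 6 scored -7.24 to -5.21. The score entered the fits as a number, and its term is the log2 change from the lowest to the highest score within a diet. By the same limits 14 of the 42 members (33.3%) rose with the score and 2 (4.76%) fell, against 1.55% and 1.39% of all genes. All 3 tested Cyp2b genes, 6 of 12 Cyp2c genes, 2 of 4 Cyp2a genes, 2 of 5 Cyp3a genes and Cyp2g1 rose, and Cyp2d9 and Cyp2u1 fell. All 6 tested genes of a list of known female-biased P450 genes (Cyp3a41a among them) rose, as did all 7 tested female-biased genes outside the members, and all 7 tested male-biased genes outside the members fell. By diet 2 of those 6, 3 of the female-biased 7 and 1 of the male-biased 7 were lower, and 0 were higher. The lower ones numbered 0, 3 and 0 with total counts alone.

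Cyp2c69 had the largest score term, 10.04 with an SE of 0.56 (FDR 3.79e-13). In control livers it held 166 to 422 CPM at a positive score and 0.0896 to 0.911 CPM at a negative score, and in MCD livers 2.26 to 38.8 CPM and 0 to 0.0996 CPM. Cyp2b13 (8.70, SE 0.51), Cyp2c40 (8.31, SE 0.37) and Cyp2a4 (7.13, SE 0.64) came next. Cyp2b13 held 43.6 to 213 CPM in control and 41.3 to 90.2 CPM in MCD livers at a positive score, and 0 to 2.51 CPM and 0.0996 to 1.08 CPM at a negative score. Its diet difference was -1.30 with an SE of 1.11 (FDR 0.311). The diet differences of Cyp2a4 (-1.33, SE 1.07, FDR 0.285) and Cyp2d9 (-1.39, SE 0.85, FDR 0.157) did not pass either. Cyp2d9, a testosterone hydroxylase known as male-biased, went the other way at -5.66 with an SE of 0.33. It held 784 to 2885 CPM in control and 522 to 640 CPM in MCD livers at a negative score, and 18.9 to 51.1 CPM and 13.6 to 46.5 CPM at a positive score. For both genes the ranges at positive and negative score were separate within each diet.

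Close copies differed in their relation to the score. Cyp2a4, a steroid hydroxylase, held 1010 to 1544 CPM in control livers at a positive score and 0.325 to 32.2 CPM at a negative score. Cyp2a5 held 342 to 1477 CPM and 291 to 1268 CPM in the same libraries, and its score term was 0.21 with an SE of 0.27 (FDR 0.659). The pair has 94.8% identical coding sequence and the upstream sequences shown above. Cyp2a22 rose by 3.59 with an SE of 0.37, while Cyp2a12, with 97.0% identical coding sequence, stood at 0.30 with an SE of 0.11 (FDR 0.0924). Among the Cyp2c copies with the printed HNF4 element the score terms were 10.04 for Cyp2c69, 8.31 for Cyp2c40, 1.24 for Cyp2c68 and -0.22 (FDR 0.341) for Cyp2c67. The coding sequences of Cyp2c67 and Cyp2c68 are 97.1% identical, and those of Cyp2c40 and Cyp2c69 97.9%. The share of 51-base windows also found in another gene was 71.5% for Cyp2c40, 54.3% for Cyp2c69, 52.1% for Cyp2c67, 42.5% for Cyp2c68, 40.0% for Cyp2a5 and 37.1% for Cyp2a4, so how reads were split among these copies is uncertain.

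**Figure D4:**
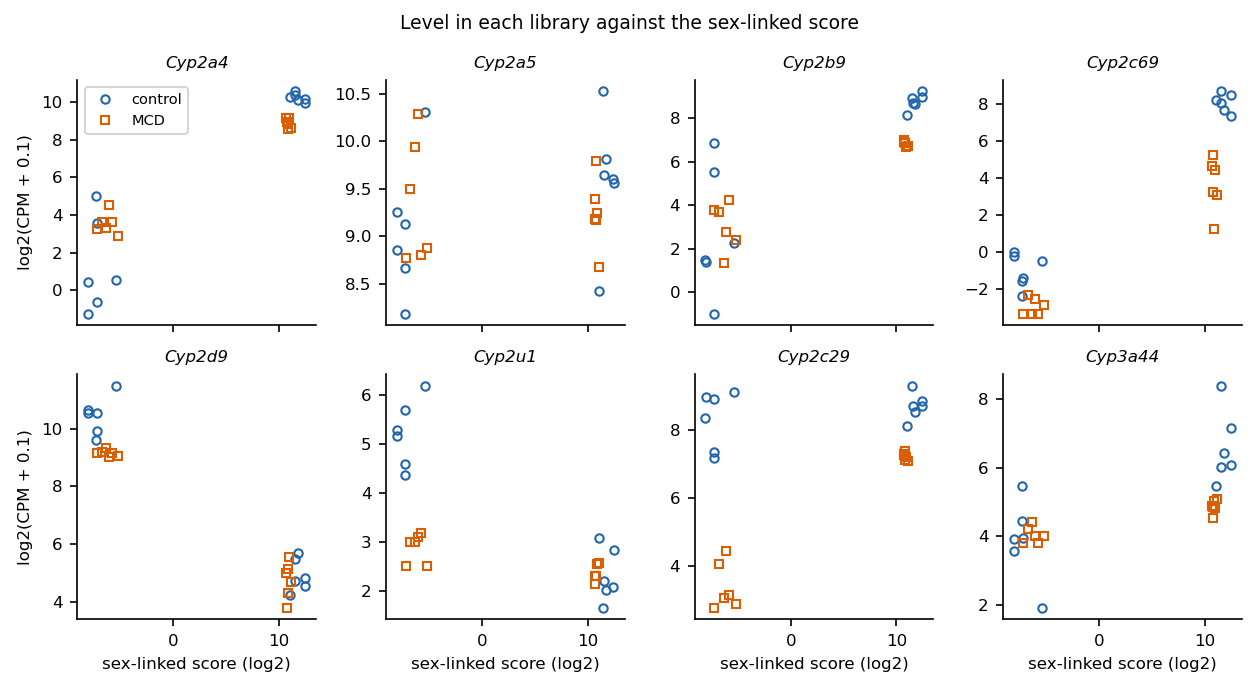
Level of 8 members, on the log2 scale of CPM with a small constant added, in each library against its sex-linked score, with control and MCD libraries marked separately. Cyp2a4, Cyp2b9 and Cyp2c69 are higher at positive scores, Cyp2d9 is higher at negative scores, and Cyp2a5 shows no such step.

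With the score as a covariate 25 members were lower by diet (59.5%, against 19.2% of all genes) and 3 higher (7.14%, against 19.7%). The 5 added were Cyp2a22 (-1.42), Cyp2b9 (-1.76), Cyp2c40 (-2.94), Cyp2d9 (-0.85) and Cyp2g1 (-1.22). Cyp2b9 held 286 to 610 CPM in control and 103 to 128 CPM in MCD livers at a positive score, and 0.409 to 117 CPM and 2.42 to 18.6 CPM at a negative score. At a negative score the median was lower in control (3.70 CPM) than in MCD livers (9.71 CPM), with control replicates 8 and 11 alone above the MCD range, at 46.2 and 117 CPM. Its log2 fold change without the score was -1.95, and its FDR was 0.0474 without the score and 0.004 with it. Cyp2c40 held 299 to 546 CPM in control and 17 to 76.1 CPM in MCD livers at a positive score, and 1.34 to 2.99 CPM and 0.0364 to 0.777 CPM at a negative score, and its FDR went from 0.0182 to 2.25e-09. Cyp2a4 remained uncalled (-0.41, FDR 0.438), with MCD values of 386 to 569 CPM at a positive score, below the controls, and of 7.3 to 23.1 CPM at a negative score, inside the control range.

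Whether the diet difference itself varied with the score was tested by a diet by score term. It passed for Cyp2c29 and Cyp2u1, 2 of 42 members (4.76%), against 0.411% of all genes. For Cyp2c29 the 6 MCD libraries of negative score held 6.73 to 21.5 CPM and the 6 controls 146 to 561 CPM. At a positive score the MCD libraries held 135 to 166 CPM and the controls 277 to 635 CPM, so MCD lay below control in both ranges but much further at a negative score. The fitted log2 fold change was -5.33 (SE 0.39) at the lowest score and -1.19 (SE 0.33) at the highest, a difference of 4.14 with an SE of 0.51 (FDR 0.000103). Cyp2c29 shares 142 exon bases with the pseudogene Cyp2c53-ps on the same strand.

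Cyp2u1, a hydroxylase of long-chain fatty acids, held 20.5 to 72.9 CPM in control and 5.57 to 8.97 CPM in MCD livers at a negative score. At a positive score it held 3.02 to 8.32 CPM in control and 4.3 to 5.79 CPM in MCD livers. Only the controls of negative score stood apart from the other 3 sets of libraries. The fitted log2 fold change was -2.54 (SE 0.31) at the lowest score and close to 0 (SE 0.30) at the highest, a difference of 2.54 with an SE of 0.46 (FDR 0.00389). The exons of Cyp2u1 share 548 bases with 4930534D22Rik on the opposite strand. Without control replicates 4 and 12 the difference was 3.85 for Cyp2c29 and 2.33 for Cyp2u1, both past the threshold, and with limma-voom Cyp2u1 did not pass (adjusted p = 0.0132). Cyp2f2 came next by FDR, though not by size, at 1.01 with an SE of 0.24 (FDR 0.0312), and did not pass.

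Read at the ends of the score, 24 members (57.1%) were lower by diet at the lowest score and 15 (35.7%) at the highest, against 18.4% and 14.2% of all genes. These counts come from a single fit, and the test of their difference is the term above, gene by gene. The members separate between the diets on the TMM scale stood at -1.48 and -1.24 (Cyp3a25), -1.48 and -1.25 (Cyp2j5) and -0.70 and -0.73 (Cyp2d22). Cyp2c67 stood at -1.42 and -0.79 and Cyp2c38 at -2.72 and -1.60, and the diet by score term passed for none of these 5. Cyp3a44 stood at -0.20 (SE 0.46) and -2.09 (SE 0.46), but its diet by score term did not pass (FDR 0.205).

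**Figure D5:**
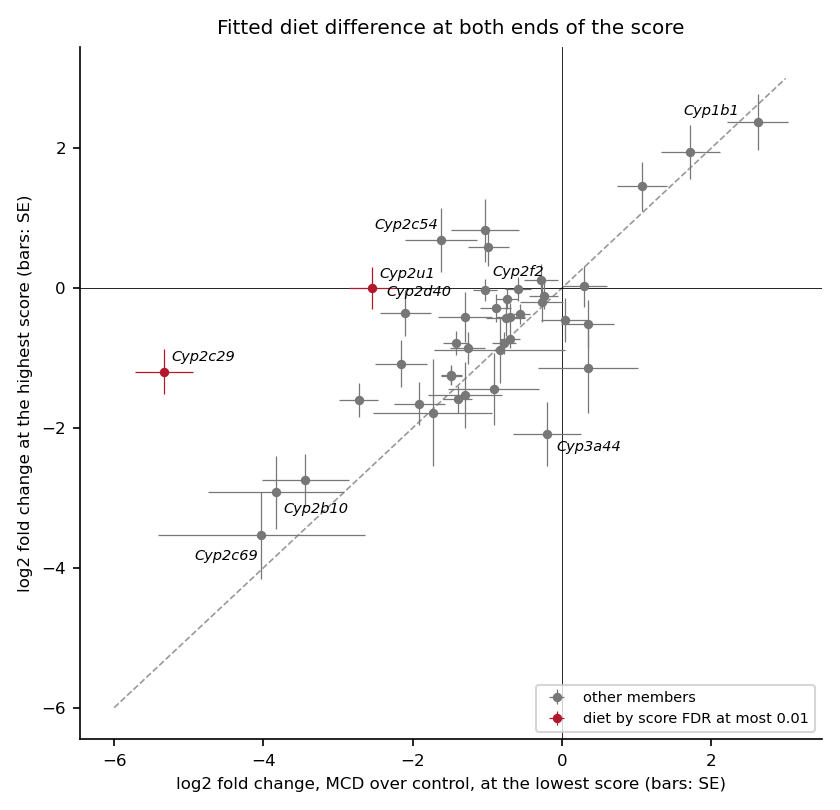
Fitted log2 fold change of MCD over control for each tested member at the lowest score (horizontal) and at the highest score (vertical), with bars for the SE and a line of equality. Cyp2c29, at -5.33 and -1.19, and Cyp2u1, at -2.54 and close to 0, are the members whose diet by score term passed.

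Of the 15 untested members 7 had no count in any library: Cyp2b19, Cyp2b23, Cyp2c65, Cyp2c66, Cyp2j7, Cyp2j12 and Cyp2w1. The highest count in a library was 1 for Cyp2j11, 2 for Cyp2j13, 5 for Cyp2j8, 6 for Cyp2t4, 8 for Cyp2d34, 18 for Cyp1a1 and 39 for Cyp3a57. Cyp3a16, best known from fetal liver, was different. In control livers it had 73 to 5251 counts at a positive score and 0 to 3 at a negative score, and in MCD livers 10 to 18 and 0 to 5. Without a filter on low counts Cyp3a16 and Cyp2d34 were called lower and Cyp3a57 higher.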

How the data were processed

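The deposited table holds read counts per gene for 24 liver libraries. Per the labels, the authors' notes name bcl2fastq, STAR 2.7.3a and the mm10 build, and the study's methods describe a stranded library kit, the exon quantification pipeline and PISCES, with a human reference. Whether those steps made the mouse counts, with which mouse annotation and whether by strand, is not given in the sources used here. Nothing but the diet and the replicate number is labelled per library, so p-values measure the spread between these animals.

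Counts were analysed with edgeR 4.0.16 (R 4.3.3): filterByExpr by diet, TMM factors and quasi-likelihood tests, with Benjamini-Hochberg adjustment over all 14109 tested genes. The 28652 rows with no count took no part. DESeq2 1.42.0 and limma-voom (limma 3.58.1) were alternatives, and the fits were tested on simulated data. The sex-linked score was centred and divided by its range of 20.5. Intervals are at 95%, and floors cover counting error only. Pairwise identity and motif matches were computed in Python 3.11.15 with Biopython 1.88 from RefSeq promoters and GENCODE transcripts, with the longest open reading frame as coding sequence.

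Members and gene lists were chosen with earlier results of these data known. A gene of the regulator list is not reported here by name. Described in full were the 8 most abundant members per length, up to 5 called members with a mean of at least 1 CPM that rose and 5 that fell most, a list by role, and the 5 with the largest score terms. Same-numbered libraries were checked for pairing: the correlation of their deviations ran from -0.28 to 0.35 (median 0.23) and passed 0.1 in 8 of 12 pairs. Apart from numbers 2 and 8, same-numbered libraries had the same sign of the sex-linked score, whose part in these correlations was not tested. The labels name no pairs, so the numbers entered only as an alternative block.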

Additional observations from a re-analysis of the deposited data

Results flagged for a closer look

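The diet difference of 2 members varied with the sex-linked score by the test of that difference (edgeR, diet by score term). The log2 fold change of Cyp2c29 was 4.137 higher at the highest than at the lowest score (FDR 0.000103), and that of Cyp2u1 was 2.543 higher (FDR 0.00389). With total counts alone the values were 3.96 for Cyp2c29 and 2.32 for Cyp2u1, both past the threshold.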

How the results depend on the processing

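The number of members lower in MCD livers, 20, was 12 with total counts alone and 15 to 21 when any 1 library was left out (15 without MCD replicate 2). It was 15 with upper-quartile factors and 15 with limma-voom (without Cyp2b10, Cyp2c69, Cyp2d26, Cyp2u1 and Cyp3a44). It was 20 with DESeq2 (without Cyp2d26 and with Cyp2c40 added), 18 with the replicate block and 14 with a log2 limit of 1. The number higher, 3, was 1 where at least 10 counts were required in every library, since Cyp1b1 and Cyp2s1 were then not tested, and stayed at 3 when each library was left out. The diet by score term passed for 1 member with limma-voom. The replicate block ended the calls of Cyp2d26, Cyp2u1 and Cyp3a44 and added Cyp2c40, and only 2 control libraries were closest to the MCD library of their own number.

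No member called by diet changed direction in any alternative. Uncalled members that did were, with upper-quartile factors, Cyp2a5 (0.048), Cyp2c23 (0.082) and Cyp2c55 (0.078). With total counts alone they were Cyp1a2 (0.23), Cyp2a5 (0.29), Cyp2c23 (0.32), Cyp2c50 (0.16), Cyp2c55 (0.30), Cyp2e1 (0.21), Cyp2j9 (0.15) and Cyp3a13 (0.079). With at least 10 counts in every library Cyp2c23 stood at 0.0091, and without control replicates 4 and 12 at 0.11. With limma-voom Cyp2a4 stood at 0.47 and Cyp2b13 at 0.016, and with the replicate block Cyp2a4 stood at 0.085. With 1 library left out Cyp2a5 ranged from -0.19 to 0.032, Cyp2c23 from -0.14 to 0.029 and Cyp2c55 from -0.19 to 0.062. Apart from the scaling alternatives, the cause of these changes was not tested.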
